A study of Homo sapiens with 15 samples.

Results

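The regions described here are the MPP8 peaks of K-562 cells that lack TASOR2. All 264 rows of the broad-peak list of that sample were taken, out of 691 peaks in the 2 lists of the series that were used. K-562 is a human line established from a chronic myeloid leukaemia. The knockout was made with CRISPR/Cas9 and grown from a sorted single cell, so the line is 1 clone and the list is 1 library. Its genotype label is TASOR2 KO, and TASOR itself was not targeted. The list used for comparison holds 427 peaks from TASOR KO cells, a clone that keeps TASOR2, precipitated with the same MPP8 antibody. That list has no peak on chromosomes 1 and 13, where the TASOR2 KO list has 19 and 4. Comparisons between the lists were made without correction for this. The labels do not say whether either clone also received an empty vector. Both chromatin samples were fixed with 1% formaldehyde for 10 min, and the other 13 samples of the series, input and MPP8 knockout cells among them, were not used here. With a single library per genotype no p-value could be given. Intervals take peaks as independent and carry counting error alone.

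MPP8 has a chromodomain that binds histone H3 methylated at lysine 9. It is a subunit of the human silencing hub (HUSH), which is recruited to transcribed DNA such as LINE-1 elements, retrogenes and other intron-poor sequence and brings in the H3K9 methyltransferase SETDB1. TASOR is the scaffold of the complex and TASOR2 its paralog. Zinc finger genes of the ZNF family lie in tandem clusters, many of them on chromosome 19, and are known to carry H3K9 trimethylation over their 3′ ends, where a single long exon usually encodes the whole array of fingers.

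Peaks of TASOR2 KO cells rarely lay on a gene start. RefSeq promoter windows (GRCh38.p14, from 250 bases before to 50 bases after a start) numbered 35116 for 27305 genes, and 5 of them (0.0142%) were overlapped by a peak. Each of the 5 lay wholly inside its peak. The 2 whose peaks ranked highest by −log10 q are shown, as examples of these exceptions in the list. By fold, the peak at the window of LOC107985304 was higher than both, at 4.13. Shown are the 250 bases before the start on the gene's strand, with capitals marking a searched motif. LINC01667 is a long noncoding RNA gene (chromosome 21, minus strand, 9821062 to 9821311 for the bases shown). Its peak had rank 6 of 264 by −log10 q, but its fold enrichment of 3.05 was low. The median fold of the list was 3.92 and the lowest 2.61. OPN1SW encodes the short-wave-sensitive cone opsin (chromosome 7, minus strand, 128775795 to 128776044), with a fold of 3.999 and rank 57.
LINC01667: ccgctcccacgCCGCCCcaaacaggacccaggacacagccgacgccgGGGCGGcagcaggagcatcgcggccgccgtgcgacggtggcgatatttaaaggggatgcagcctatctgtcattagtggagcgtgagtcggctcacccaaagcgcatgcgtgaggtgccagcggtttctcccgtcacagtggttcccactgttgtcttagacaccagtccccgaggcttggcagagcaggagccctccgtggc
OPN1SW: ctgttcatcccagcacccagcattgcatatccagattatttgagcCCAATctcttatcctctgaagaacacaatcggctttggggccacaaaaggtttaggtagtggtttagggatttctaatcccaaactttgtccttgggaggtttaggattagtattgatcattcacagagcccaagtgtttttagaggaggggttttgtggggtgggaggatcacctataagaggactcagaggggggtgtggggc

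Both strands were searched for the TATA box (TATAAA), the CCAAT box (CCAAT), the SP1 box (GGGCGG), an ETS site (CCGGAAGT) and the NRF1 palindrome. The LINC01667 window held GGGCGG on each strand, a motif found in 42.6% of all windows, and 22 CpG sites against a median of 11 over all windows. The OPN1SW window held CCAAT, found in 32.0% of all windows, and 1 CpG site. The other 3 windows belonged to the uncharacterised noncoding genes LOC107985304, LOC107986840 and LOC112268102 and held none of the 5 motifs. Of the 557 windows of ZNF genes, 0 were overlapped (exact 95% upper bound 0.660%). That interval includes the 0.0142% of all windows, so the count could not be told from that share. Counted as peaks, 5 of 264 TASOR2 KO peaks (1.89%) and 101 of 427 TASOR KO peaks (23.7%) lay on a promoter window. As odds, TASOR KO exceeded TASOR2 KO by a ratio of 16.0 (exact 95% interval 6.50 to 51.1). The lists reach unlike q, up to 0.258 in TASOR2 KO and 0.460 in TASOR KO. This ratio takes all their peaks and was not computed at a common q. By window, the TASOR KO peaks overlapped 141 of 35116 (0.402%).

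Of 1913 annotated miRNA genes 1 lay under a peak, beside 172 of 20037 protein-coding genes (0.858%). MIR6501 (chromosome 21, plus strand, 33550662 to 33550728) lies near the start of the peak of the splicing factor gene SON, 33550049 to 33556629, with a fold of 4.09 and rank 35. Its mature products are shown with the seed, bases 2 to 8, in capitals. The peak covers the hairpin, and expression of the miRNA was not measured.
hsa-miR-6501-5p: aGUUGCCAgggcugccuuuggu
hsa-miR-6501-3p: cCAGAGCAgccugcgguaacagu

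Within ZNF genes the peaks were gathered towards the 3′ end. For each peak whose centre lay in a gene of known strand, its place was expressed from 0 at the annotated start to 1 at the annotated end. A place was available for 66 of the 77 peaks that overlapped a ZNF gene. Their median place was 0.87 (order-statistic 95% interval 0.82 to 0.91). The last 25% of the gene held 51 of the 66 peaks (77.3%, exact 95% interval 65.3 to 86.7), and the first 25% held 2. The median distance from peak centre to the annotated gene end was 3.07 kb (2.47 to 4.83), while the median distance from the gene start was 21.8 kb. A peak centre lay within 5 kb of the gene end in 42 cases and within 5 kb of the gene start in 0. The peak itself reached past the annotated end in 10 of the 66 and past the start in 0. The side was the same on both strands: 30 of 41 peaks in plus-strand genes and 21 of 25 in minus-strand genes were in the last 25%.

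**Figure D1:**
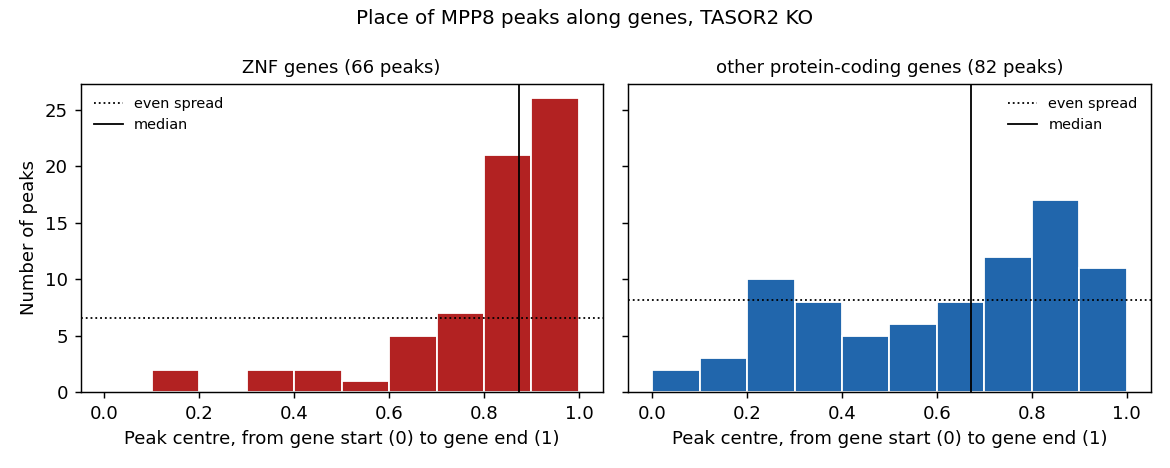
Number of TASOR2 KO peaks by the place of the peak centre along the gene, from start (0) to end (1), in 10 equal bins, for 66 peaks in ZNF genes and 82 in other protein-coding genes. Solid lines mark the medians, 0.87 and 0.67, and dotted lines an even spread. Peaks in ZNF genes pile up at the right of their panel.

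ZNF175 carried the peak of highest −log10 q in the list (gene ID 7728, chromosome 19, 51571283 to 51592510, plus strand). The peak spanned 51587413 to 51588664, its fold was 6.01, and its centre was 16.8 kb from the start and 4.47 kb from the end of the gene. ZNF12 (gene ID 7559, chromosome 7, 6688433 to 6706947, minus strand) had a peak of 4733 bp with a fold of 4.85, centred 3.05 kb from the gene end. In ZNF510, on chromosome 9, the peak centre was 2.92 kb from the end (fold 4.60). In the much longer ZNF292, at 110 kb, a peak of 6197 bp stood 103 kb from the start and 7.25 kb from the end. ZNF268, on chromosome 12, had its peak centre 10.1 kb from the end, at 69.7% of the gene (fold 4.52). ZNF138, on chromosome 7, had it 27.4 kb from the end, at 58.7% (fold 4.38). No place was available for the other 2 of the 8 ZNF genes with the highest-scoring peaks, ZNF888 and ZNF721. Among the 6 with a place, the distance to the end ran from 2.92 to 27.4 kb, and 4 of the 6 were in the last 25%.

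Peaks of ZNF160, ZNF14, ZNF814, ZNF616 and ZNF121 were among those that ran past the gene end. ZNF160 had its centre 0.392 kb before the end, ZNF14 0.534 kb and ZNF814 0.237 kb. Exceptions lay early in the gene. The peak in ZNF565 was at 10.4% of the gene length and that in ZNF451 at 15.7%. That ZNF565 peak also overlapped the last 3399 bases of ZNF146 (36214723 to 36238768, plus strand), a gene inside the ZNF565 span, and its centre lay 0.530 kb past the ZNF146 end. These genes were chosen after their values were seen, except, through the width of their peaks, ZNF121, ZNF565, ZNF146 and ZNF814.

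ZNF genes held 77 of 264 TASOR2 KO peaks (29.2%) and 65 of 427 TASOR KO peaks (15.2%), an odds ratio of 2.29 (exact 95% interval 1.55 to 3.39). At q 0.05 or below the ratio was 1.36 (0.673 to 2.72), an interval that included 1. The side of the gene also differed between the 2 lists. In TASOR KO the last 25% of ZNF genes held 7 of 40 peaks (17.5%) and the first 25% held 22, with a median place of 0.16. The odds ratio for the last 25%, TASOR2 KO over TASOR KO, was 15.5 (exact 95% interval 5.41 to 50.4). Restricted to q 0.05 or below it was 21.2 (2.22 to 1102.17), from 11 of 17 and 1 of 14 peaks. Outside chromosome 19 it was 6.06 (0.845 to 75.4), from 13 of 20 and 2 of 9 peaks, and that interval included 1. The ratio compares 2 lists of 1 library each.

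Other protein-coding genes showed the same side less sharply. Of 82 peaks with a place, 33 (40.2%, 29.6 to 51.7) were in the last 25% and 10 in the first, with a median place of 0.67 (0.54 to 0.76). Within the TASOR2 KO list, the odds ratio of ZNF genes over other protein-coding genes for the last 25% was 4.99 (2.32 to 11.2). Against the TASOR KO list, where 15 of 124 such peaks (12.1%) were in the last 25%, the odds ratio was 4.85 (2.32 to 10.6). At q 0.05 or below it was 5.24 (1.23 to 27.1), from 9 of 24 and 4 of 40 peaks.

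Several of the strongest peaks outside ZNF genes were wide and late in the gene. ANKRD11, which encodes a chromatin regulator, had a peak of 5063 bp at 93.3% of the gene (fold 5.27, rank 4). SLC38A1, an amino acid transporter gene, had one of 6598 bp at 88.8% (fold 4.85, rank 9). CPED1 had one of 10918 bp at 85.2% (fold 4.77, rank 8), and ITGB1BP1, whose product binds the tail of integrin beta-1, one of 2383 bp at 81.2% (fold 5.46, rank 5). MKI67, the gene of the proliferation marker Ki-67, had a peak of 6975 bp at 66.8% (fold 4.71, rank 12). MYO1F, a myosin gene with the second-ranked peak, was different, with a peak of 2947 bp at 40.8% (fold 5.69). The peak of rank 7 lay in TMEM70, a gene of ATP synthase assembly on chromosome 8 (fold 4.84), whose strand was not in the table used.

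Lower in rank were APC, SPEN, SRRM2, SON, ASPM and CENPF, chosen after their values were seen as further examples. APC, a tumour suppressor of the Wnt pathway, had a peak of 6562 bp at 96.7% of the gene (fold 4.50, rank 16). SPEN, a transcriptional corepressor gene, had one of 6523 bp at 91.2% (fold 4.08, rank 25). The splicing factor genes SRRM2 and SON had peaks of 4449 bp at 64.7% and 6581 bp at 29.9%. ASPM, a spindle gene, had a peak of 2904 bp at 71.3%, and CENPF, a kinetochore gene, had 2 peaks, of 2666 and 1573 bp, at 62.7% and 71.5%. These picks give no count of how often peaks lie late in such genes, and exon positions were not used.

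Peaks were densest in ZNF genes. Peak centres fell in ZNF gene bodies 75 times over 20.7 Mb, or 3.62 per Mb. Bodies of other protein-coding genes held 93 centres over 1243 Mb (0.0748 per Mb), bodies of noncoding genes and pseudogenes 38 over 414 Mb (0.0917 per Mb), and the rest of the annotated span 58 over 1409 Mb (0.0412 per Mb). ZNF bodies thus made up 0.670% of the span and held 28.4% of peak centres (exact 95% interval 23.05 to 34.3). The 3 other places differed from each other far less than from ZNF genes. By the numbers in the peak names, described below, 75.6% to 81.2% of calls on chromosome 19 are listed. Elsewhere 13.9% to 14.0% are, and 55 of the 77 peaks that overlapped ZNF genes lay on chromosome 19. The densities were not corrected for this uneven listing.

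Of 20037 protein-coding genes, 172 (0.858%) had a peak overlapping the body. Of the 510 ZNF genes 76 did (14.9%, 11.9 to 18.3). With peaks of q 0.05 or below alone, 22 of the 510 ZNF genes were met, against 0.279% of protein-coding genes. Off chromosome 19 there were also 22, against 0.619% of protein-coding genes there. That count is out of fewer ZNF genes, because 246 of the 510 lie on chromosome 19. The counts over all chromosomes were not corrected for the fuller listing of calls on chromosome 19. Within 5 kb of the body 84 of all 510 were met, against 1.03%. Met and unmet ZNF genes had overlapping intervals of median length, 26.1 kb (23.4 to 29.9) and 23.1 kb (21.0 to 25.1). The 96 other protein-coding genes that were met were longer than the 19431 that were not, with medians of 74.9 kb (59.0 to 106) and 24.0 kb (23.4 to 24.7). Genes over 100 kb made up 40.6% of the former and 16.9% of the latter. A longer body offers more room for a peak, and no correction for this was made.

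For most other families the count could not be told from the 0.858% of all protein-coding genes. Of 137 genes in zinc finger families with other names, 3 had a peak: ZFP62, ZSCAN32 and ZSCAN25 (2.19%, 0.454 to 6.27). That interval includes the background. The 379 solute carrier genes had 1, SLC38A1 (0.264%, 0.00670 to 1.46). The other families of chromosome 19 had none: 0 of 41 SIGLEC, LILR and KIR receptor genes, 0 of 22 CEACAM and PSG genes, 0 of 16 kallikrein genes and 0 of 12 CYP2 and CYP4F genes. Tandem families elsewhere had none in the gene body either, with 0 of 392 olfactory receptor genes (exact 95% upper bound 0.937%), 0 of 53 clustered protocadherin genes, 0 of 73 histone genes, 0 of 55 keratin genes, 0 of 39 HOX genes and 0 of 21 HLA genes. No ribosomal protein gene (0 of 83) or listed erythroid gene (0 of 21) had a body peak. At that background, a list of fewer than 100 genes would hold less than 1 met gene on average. Of 17 genes of the HUSH complex and its partners, 3 were met (17.6%, 3.7985 to 43.4): ATF7IP2, ZNF518B and ZNF518A, of which the last 2 are also ZNF genes.

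ZNF genes were not met evenly over their clusters. Neighbouring ZNF genes were joined into blocks at 500 kb, a distance chosen after the data were seen, and blocks of 10 or more genes were compared; their genes are named for place, not strength. The block on distal chromosome 19q at 51.6 to 53.6 Mb had 18 of 39 genes met (46.2%, 30.1 to 62.8), among them ZNF175, ZNF888, ZNF160, ZNF808 and ZNF845. The next block along the chromosome, at 55.5 to 56.7 Mb, had 1 of 16, ZNF583 (6.25%, 0.158 to 30.2). The terminal block at 57.2 to 58.5 Mb had 7 of 43 (16.3%, 6.81 to 30.7). Between 8.5 and 44.5 Mb the 5 other chromosome 19 blocks had between 18.9% and 28.0% of their genes met. On chromosome 7 the block at 64.0 to 65.4 Mb had 4 of 11, ZNF107, ZNF138, ZNF273 and ZNF117, while 0 of 10 were met at 149.1 to 149.9 Mb. On chromosome 16 0 of 13 were met at 30.4 to 31.9 Mb. Most of the intervals overlap, and that of the 51.6 to 53.6 Mb block lies above the 14.9% of all ZNF genes.

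**Figure D2:**
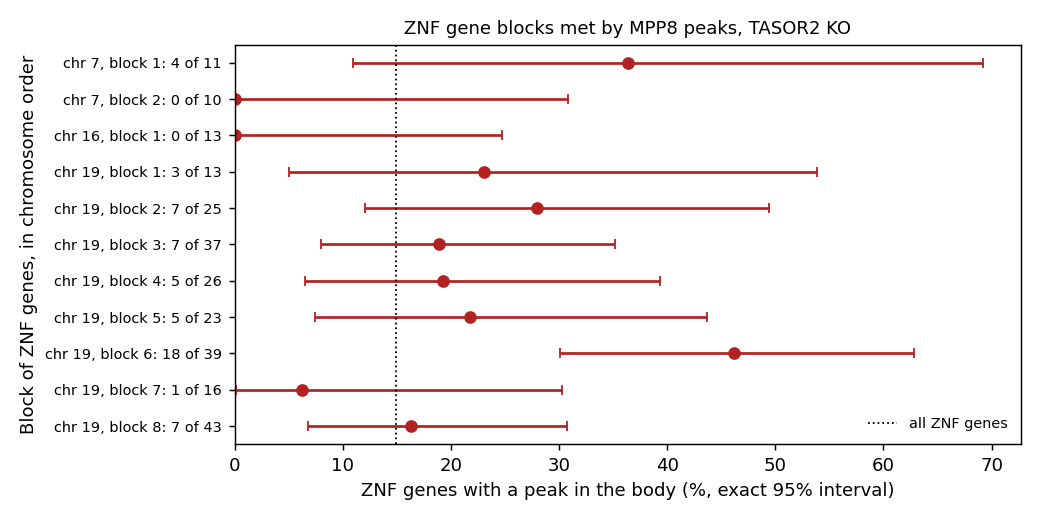
Share of ZNF genes with a TASOR2 KO peak in the body for each block of 10 or more ZNF genes, in chromosome order, with exact 95% intervals; the dotted line is the 14.9% of all 510 ZNF genes. Block 6 of chromosome 19, with 18 of 39 genes, lies highest.

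Chromosome 19 held 65 of the 264 peaks (24.6%, 19.5 to 30.3) in 1.90% of the annotated span, 111 peaks per 100 Mb. ZNF genes were overlapped by 55 of these 65 peaks (84.6%, 73.5 to 92.4), although their bodies cover 12.02% of the chromosome. Of the 10 others, 1 lay in a protein-coding gene (MYO1F), 5 in noncoding genes or pseudogenes and 4 in no annotated gene. The remaining 199 peaks included 22 in ZNF genes. Chromosome 7 held 44 peaks (16.7%, 12.4 to 21.7), 27.6 per 100 Mb, and differed in kind, with 7 in ZNF genes, 13 in other protein-coding genes, 10 in noncoding genes or pseudogenes and 14 in no annotated gene. Other chromosomes had between 2.06 and 12.9 peaks per 100 Mb. No peak was listed on chromosomes 14, 15, 22, X and Y. Both concentrations were also in the TASOR KO list. There chromosome 19 held 60 of 427 peaks (14.1%), 102 per 100 Mb, and chromosome 7 held 90 (21.1%), 56.5 per 100 Mb.

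The numbers in the TASOR2 KO peak names placed the concentration on chromosome 19 in a longer list. They rose without exception along each chromosome and with the chromosomes in text order, from 1 to 1512, so 1248 numbers in between have no row in the list used here. On chromosome 19 the numbers between the first and last listed peak allow 80 to 86 calls, of which 65 are listed, or 75.6% to 81.2%. On all other chromosomes together 199 of 1426 to 1432 numbers (13.9% to 14.0%) are listed. As a share of the numbers, chromosome 19 had 5.29% to 5.69%, against 24.6% of the listed peaks. Chromosome 1 had at least 363 numbers (24.0%) and 19 listed peaks (7.20%). Chromosome 7 had 194 to 212 numbers, at least 12.8%, within the interval of its listed share. The concentration on chromosome 19 was thus seen in the listed peaks and not to that extent in the numbers, and the labels do not say how its rows were chosen. In the TASOR KO list 60 of 287 to 299 numbers on chromosome 19 are listed (20.1% to 20.9%). Over its numbers from the first listed, 1612, to the last, 13397, the listed share is 3.62%. Numbers below 1612 have no row in that list and are not counted in this share.

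The skipped numbers were unevenly placed. The largest jump, of 290 numbers (23.2% of those skipped), fell on chromosome 1 between 108325282 and 147300117, an interval of 39.0 Mb that includes the centromere. A jump of 70 fell on chromosome 10 within 2.71 Mb, between 39621617 and 42336365, at the centromere. A jump of 130 fell between the last listed peak of chromosome 12 and the first of chromosome 13. On chromosome 19, 54 of 64 neighbouring pairs had consecutive numbers.

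**Figure D3:**
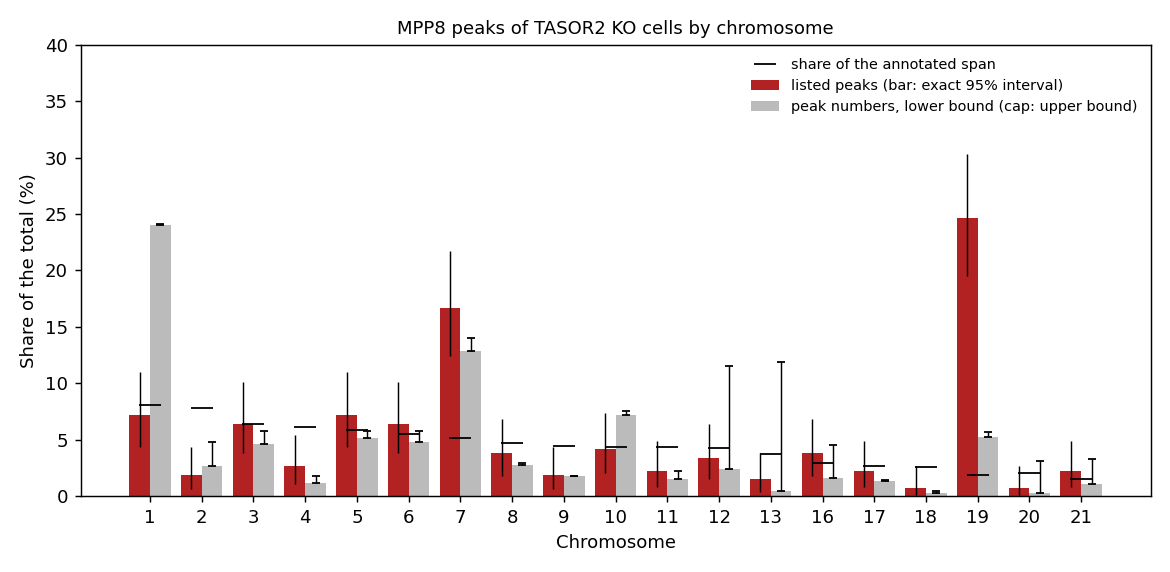
Share of the 264 listed peaks (red, with exact 95% intervals), share of the 1512 peak numbers (grey, lower bound with a cap at the upper bound) and share of the annotated span (black dash) for the 19 chromosomes with a listed peak. Chromosome 19 has 24.6% of listed peaks and at least 5.29% of numbers, and chromosome 1 has 7.20% and at least 24.0%.

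Peaks lay near each other. Neighbours on a chromosome were joined when at most 100 kb apart, which gave 193 places: 156 single peaks and 37 groups that held 108 peaks (40.9%, 34.9 to 47.1). Of the groups, 22 were pairs, 7 held 3 peaks and 8 held 4 or more. The smallest gap between neighbours was 2024 bp and the median 908 kb. In the TASOR KO list the smallest gap was 2005 bp, and whether peak calling set this minimum was not tested. Of the 71 neighbouring pairs within 100 kb, 70 had consecutive peak numbers. Groups held 29 of 44 peaks on chromosome 7 and 37 of 65 on chromosome 19. By place, 54.5% of ZNF gene peaks (42.8 to 65.9) and 26.3% of peaks in other protein-coding genes (17.8 to 36.4) were in a group. Noncoding genes and pseudogenes were at 53.7% (37.4 to 69.3), and peaks in no annotated gene at 37.3% (24.1 to 51.9). The grouped peaks of noncoding genes and pseudogenes numbered 22. Of these, 8 lay in LINC02476, 4 in LINC01667 and 3 in ZNF37BP, so few genes held most of them. In all, 22 of 108 grouped peaks (20.4%) and 57 of 156 single peaks (36.5%) had a q of at most 0.05. With the 79 peaks of q 0.05 or less alone, 7 (8.86%) were in groups. The odds ratio of grouped peaks against the TASOR KO list was 1.36 (0.978 to 1.89) over all peaks, an interval that included 1, and 0.299 (0.106 to 0.734) at q 0.05 or below.

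The largest group was not at a ZNF cluster. It held 9 peaks over 295 kb of chromosome 7 (119593580 to 119888493), 8 of them in the long noncoding RNA gene LINC02476 and 1 in no annotated gene. The peaks were 770 to 6667 bp wide with folds of 3.56 to 3.999, their ranks ran from 101 to 226, and 0 had a q of 0.05 or less. A second group without protein-coding genes lay on the same chromosome at 145833400 to 145970041, with 5 peaks in no annotated gene, folds of 3.50 to 4.20, and 1 of them, of rank 21, at a q of 0.05 or less. The most compact of the larger groups was on chromosome 21 at 9790473 to 9824617, where 5 peaks took 24.2% of 34.1 kb. Of these, 4 lay in LINC01667 and 3 had a q of 0.05 or less, with ranks from 3 to 141. Folds in this group ran from 2.61, the lowest of the list, to 4.31.

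The other 5 groups of 4 or more peaks were in zinc finger clusters. The largest was on chromosome 19 at 52551115 to 52801009, with 8 peaks over 250 kb. They lay in ZNF808 (2 peaks), ZNF701, ZNF611, ZNF600 (2 peaks, 1 of them also in ZNF28), the noncoding gene LOC137778871 and, for 1 peak, no annotated gene. Folds ran from 3.56 to 4.31 and 1 peak, in ZNF600, had a q of 0.05 or less. On chromosome 7 at 64831567 to 64982048, 3 of 4 peaks met ZNF138, ZNF273 and ZNF117 and 1 met no annotated gene, and 3 of the 4 had a q of 0.05 or less. The groups at ZNF224, ZNF225, ZNF226 and ZNF227 (chromosome 19, 44106869 to 44238160), at ZNF263, ZNF75A, ZSCAN32 and ZNF174 (chromosome 16, 3292402 to 3409128) and at ZNF845, ZNF765 and ZNF761 (chromosome 19, 53351060 to 53456440) held 4 peaks each, and 0 of these 12 peaks had a q of 0.05 or less.

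**Figure D4:**
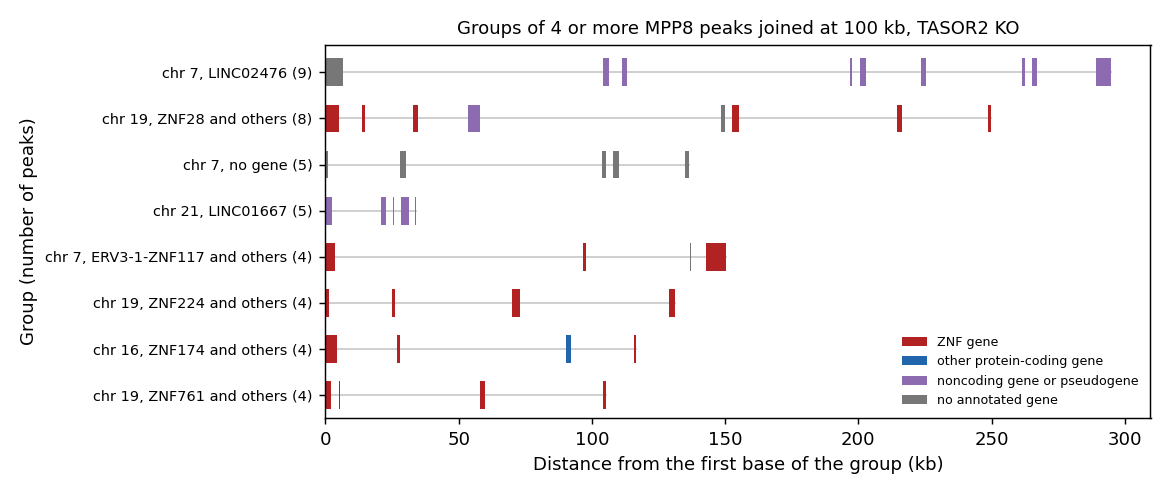
The 8 groups of 4 or more TASOR2 KO peaks, with each peak drawn to scale at its distance in kb from the first base of its group and coloured by place; the number of peaks is given beside each name. The group at LINC02476 spans 295 kb, and the group at LINC01667 34.1 kb.

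More than 1 peak was found in 15 protein-coding genes. ADGRV1, a very long adhesion receptor gene of 606 kb, had 3 peaks within 15.1 kb. ZNF600, ZNF808, ZNF845 and ZNF850 had 2 each, as did the readthrough gene ZNF765-ZNF761. The others with 2 were CENPF, COA1, INSL6, KCNQ1, LOC124900163, MARCHF3, RPS6KC1, STXBP5 and XRN1. In CENPF both peaks had a q of 0.05 or less, at ranks 50 and 51.

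Widths ran from 501 to 15317 bp, with a median of 1881.5 bp (order-statistic 95% interval 1690 to 2041) and quartiles of 1004.5 and 3045 bp. The narrowest peak was just over the 500 of the min tag in the peak names, and that of the TASOR KO list had 504 bp. The median was 1968 bp (1252 to 2288) in ZNF genes, 2053 bp (1709 to 2475) in other protein-coding genes, 1895 bp (1158 to 2182) in noncoding genes and pseudogenes and 1508 bp (1166 to 1823) where no gene was annotated. The 4 intervals overlap. Grouped and single peaks had medians of 1705 bp (1429 to 2014) and 1968 bp (1709 to 2244), and chromosome 19 had a median of 1750 bp (1326 to 2073), so no difference in width between places went beyond these intervals. Width went with peak strength: peaks with a q of 0.05 or less had a median of 2664 bp (2253 to 3675) and weaker peaks 1636 bp (1397 to 1859). Across the 264 peaks Spearman's rho between width and −log10 q was 0.37, as a description of peaks that share a library and a caller.

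**Figure D5:**
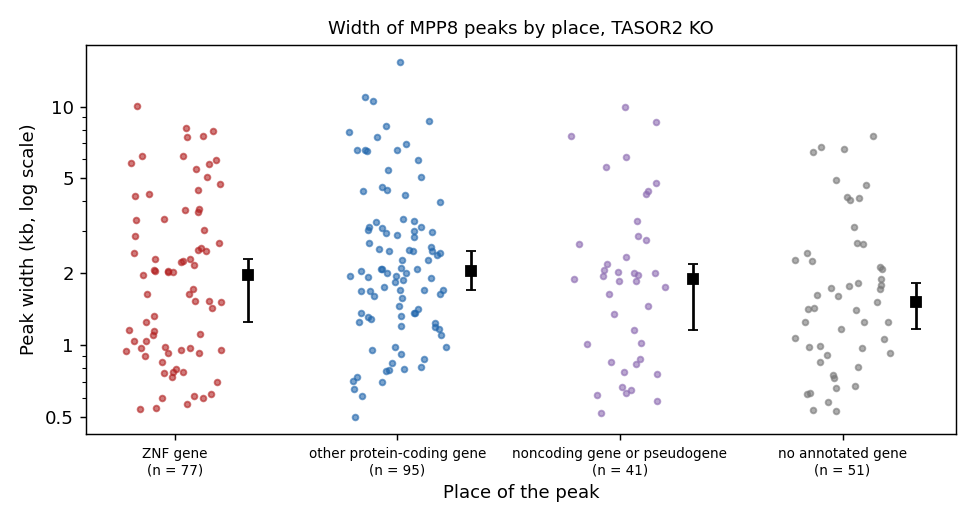
Width of each of the 264 TASOR2 KO peaks (points, kb, log scale) by place, with the median and its order-statistic 95% interval (square and bar). The medians, from 1508 to 2053 bp, have overlapping intervals.

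Of the 264 peaks 36 were over 5 kb. They included 12 of the 77 in ZNF genes and 15 of the 95 in other protein-coding genes, both near the share over all peaks. The widest, of 15317 bp, lay on chromosome 11 at 2643537 to 2658853 in KCNQ1, a potassium channel gene, and in KCNQ1OT1, the antisense noncoding RNA that silences an imprinted domain. Its fold was 4.05 and its q 0.0515, and the second KCNQ1 peak, of 3312 bp, stood beside it, so that the pair covered 87.1% of 21.4 kb. The next widest were in CPED1, in PCGF3, which encodes a Polycomb ring finger protein (10501 bp), in ZNF121 (10088 bp) and in the noncoding gene LOC105376944 (9992 bp). MBNL1, a splicing regulator gene, had a peak of 8679 bp at 81.4% of the gene, and ANKRD12, a paralog of ANKRD11, one of 8300 bp at 82.2%. The rest of the 12 widest lay in LINC00861, ZNF814, ZNF565 with ZNF146, XRCC2, a homologous recombination gene, and ZNF117.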

How the data were processed

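MPP8 ChIP-seq peak lists of TASOR2 KO and TASOR KO cells were used, 1 library each, grouped by sample title. Tools named in the submitters' processing notes are deepTools, MACS2 and Bowtie2 2.3.5.1, and the builds named are hg38 and mm9. Which control served for calling, how the spike-in entered, and how the listed rows were selected are not given in the sources. Calling cutoffs are not stated there either, apart from tags in the peak names. The deposited lists have 9 columns and no header, in the order of MACS2 broad peaks. The deposited score is 10 times the −log10 q, and the authors' fold (a ratio), −log10 q and −log10 p of each peak served only to describe, rank and filter. Sequencing depth is unknown. Peak names of the TASOR2 KO list carry the tags bc0.3, max500 and min500, which may record calling settings and are not explained. The largest q of that list, 0.258, is below 0.3, and its narrowest peak, 501 bp, is just over 500.

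Coordinates are 1-based. Genes came from RefSeq (GRCh38.p14; 59679 genes, 20037 protein-coding), and strand from the RefSeq promoter table, which covers 15843 protein-coding genes and 431 of 510 ZNF genes. Overlap meant 1 bp. A peak in several genes was placed in the shortest ZNF gene, or else the shortest protein-coding gene, that held its centre. Intervals are exact binomial (Clopper-Pearson) or order-statistic 95% intervals, and odds ratios are conditional. No protein table was used, so the planned protein properties were not computed. Named genes are the 12 peaks of highest score, the 12 widest, groups of 4 or more peaks, genes with 2 or more peaks and up to 8 genes per list; others are said to be chosen later. Regions, gene lists and tests were chosen with earlier results of these data known. The placing of peaks along genes was tested on simulated data. Computation used Python 3.11.15 with scipy 1.17.1, pandas 2.3.3, numpy 2.4.6 and, for plots, matplotlib 3.10.9.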

Additional observations from a re-analysis of the deposited data

How the results depend on the processing

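No paired analysis was possible because the lists come from single libraries, of which none could be left out. Of 87 alternative values over 31 results, 65 did not move beyond the counting error or change a call. Of these, 34 are gene list counts of 0 that stayed at 0, which a stricter setting could not lower; apart from lists at 0, 31 of 51 did not move. With only the 79 peaks of q 0.05 or less, chromosome 19 held 17.7% of peaks, 8.86% of peaks were grouped, 64.7% of ZNF gene peaks were in the last 25% of the gene, and 22 ZNF genes were met. Median widths there were 2505 bp in ZNF genes, 2995.5 bp in other protein-coding genes, 2340 bp in noncoding genes and 2130 bp outside genes. The odds ratio between the lists fell to 1.36 (0.673 to 2.72) for ZNF genes, from 2.29, and lost its call; for grouping it turned to 0.299, from 1.36. Fewer peaks lie farther apart by construction. Without chromosome 19, 22 ZNF genes were met, the median ZNF gene width was 2729 bp, 65.0% of ZNF gene peaks were in the last 25%, and the odds ratio for that share was 6.06. Joining at 10 kb and 500 kb put 19.7% and 57.2% of peaks in groups. Leaving ZNF genes out of the annotation left 37.9% of peaks in protein-coding genes. By peak numbers, chosen after seeing the data, as was the last 25% without chromosome 19, chromosome 19 held 5.29% to 5.69%.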
